A study of Homo sapiens with 9 samples.

Results

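The late-only falls of new RNA are 108 genes of the 18970 gene symbols counted. Their newly made RNA was lower 24h after the transcription factor SOX9 was degraded but, after 3h, had on average fallen little or had risen. New RNA was measured as T>C reads, sequencing reads that carry the T>C conversions left by the uridine analogue 4-thiouridine (4sU). T>C reads of each library were scaled to CPM, that is to equal sums of T>C reads per library. A gene entered the group if its mean T>C CPM over the 9 libraries was at least 3, if the log2 ratio of 24h to 0h, with 0.5 added to both CPM values, was -0.4 or lower in each of 3 cultures, and if the mean of the same 3 ratios for 3h was above -0.25. Of the 18970 genes, 10731 reached the CPM minimum, and 279 of them met the 24h limit in all 3 cultures. From these, 169 had a mean 3h ratio of -0.25 or lower, the collagen genes COL2A1 and COL11A1 were left out by name, and 108 remained. The genes were thus chosen by their T>C reads at 3h and 24h against 0h, and their ratios at these times are given as descriptions, without a test.

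The cells were cranial neural crest cells (CNCCs) made by differentiation of human embryonic stem cells of the established line H9. Every library, the 0h controls included, came from cells with SOX9 tagged on both alleles at its C terminus with FKBP12-F36V, mNeonGreen and V5, and no untagged cells were part of these libraries. The tag lets the small molecule dTAGV-1 bring SOX9 to the ubiquitin machinery for degradation. Groups were 0h (vehicle, dimethylsulfoxide), 3h and 24h of 500 nM dTAGV-1, with 3 samples each, and the labels give a relative SOX9 level of 100% at 0h and of 0% at 3h and 24h. The 4sU pulse (100 uM) lasted 2 h. It started 1 h into dTAGV-1 treatment for 3h samples and 22 h into it for 24h samples. The same 3 cultures supplied every group. Their names, S9CC13_R6, S9CC47_R5 and S9CC47_R6, combine a clone (S9CC13 or S9CC47) with a batch of differentiation (R5 or R6), so each clone and batch is seen in only 1 or 2 cultures. Sets of 3 values below follow this order of cultures.

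CNCCs arise at the border of the neural plate, migrate into the head and give rise to the cartilage and bone of the face, besides neurons, glia and pigment cells. SOX9 belongs to the SoxE group of transcription factors and is best known as the regulator of cartilage formation, where SOX5 and SOX6 act beside it. In a short 4sU pulse, the converted reads come from transcripts made during the pulse, while total reads also hold the transcripts made before it, so that long-lived RNA keeps total reads high after synthesis falls.

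Total reads per library ranged from 16955633 to 28782678 and T>C reads from 3130673 to 5475800. T>C reads made up between 15.9% and 21.3% of a library, lowest in S9CC13_R6 at 3h. Degradation acts on SOX9 protein, so that no read count in these tables checks the labels of the targeted gene. The 10 markers of cranial neural crest were all present, and their summed total CPM lay between 3867 and 3895 at 0h and between 5958 and 6330 at 24h. Markers of glia and melanocytes (12 genes, of which 4 reached a mean of 1 total CPM and TYR had no read) summed to between 14.6 and 20.5 total CPM at 0h and to between 3.26 and 4.85 at 24h. The 9 pluripotent stem cell markers counted (4 reached that mean and TDGF1 had no read) summed to 830 to 910 at 0h and to 764 to 842 at 24h. The 14 markers of neural progenitors and neurons (4 reached it, SOX1 and HES5 had no read) summed to 93.2 to 110 at 0h and to 69.25 to 97.7 at 24h. Epithelial markers (GRHL2 had no read) summed to 3.2 to 4.3 at 0h and to 1.7 to 2.6 at 24h. These sums are not split by gene here, and a few genes may carry most of one. The part of these other cell types in the results below was not tested, and in these bulk libraries fewer cells of a type and less RNA per cell cannot be told apart.

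The 108 genes together held between 5276 and 6330 T>C CPM in the 0h libraries, between 5252 and 6179 in the 3h libraries and between 3438 and 3973 in the 24h libraries. Their 24h mean log2 ratios ran from -2.30 to -0.45 with a median of -0.73, beside a median of 0.01 over the 10731 genes and of -0.96 over the 169 genes that were already lower at 3h. A log2 ratio of -1 stands for a 2-fold fall. The mean ratio was -1 or lower for 17 genes, between -1 and -0.7 for 41 and above -0.7 for 50. At 3h the mean ratios ran from -0.25 to 0.62 with a median of -0.09. At that time 17 of the 108 genes were lower than at 0h in all 3 cultures, beside 13.4% of the 10731 genes. Another 5 were higher in all 3, beside 12.9% of the 10731 genes.

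**Figure D1:**
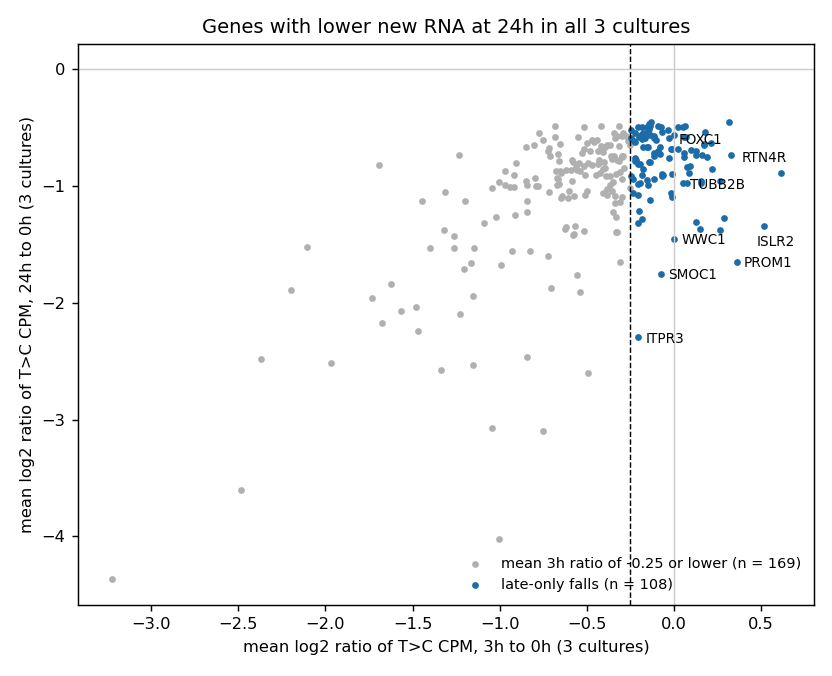
Mean log2 ratio of T>C CPM over 3 cultures at 3h (horizontal axis) and at 24h (vertical axis) for the 108 late-only falls (blue) and the 169 genes with a mean 3h ratio of -0.25 or lower (grey). The dashed line marks the 3h limit that divides them. The blue points reach down to -2.30 at 24h for ITPR3, and RTN4R has the highest 3h value of 0.62.

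The limits cut through a dense range of values. The genes closest inside the 24h limit were OGFOD2 (highest ratio of the 3 cultures -0.40), PHPT1 (-0.41) and MTMR10 (-0.41), and the closest outside were NEK6, PAPPA and HES6 (-0.40 each, just above the limit). The genes closest inside the 3h limit were CLEC11A, FBRSL1 and RAD52 (mean 3h ratios -0.25, -0.25 and -0.24), and the closest outside were CEP170B (-0.25), SLC1A4 (-0.25) and DPYSL3 (-0.27). Scaling T>C reads to the total reads of each library in place of the T>C reads left 40 of the 108 genes and added none.

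All 108 genes were of the protein-coding type and all entered the fit of T>C reads across 12037 genes with DESeq2, a count model in which an adjusted p (Benjamini-Hochberg) under 0.1 counts as a call. For T>C reads at 24h against 0h, 45 of the 108 were called lower beside 2.59% of all genes tested, and none was called higher beside 2.38% of all genes. These calls share their contrast with the selection, and nothing is read from them. They rest on the full set of libraries, since 2 members were called without S9CC13_R6, 11 without S9CC47_R5 and 4 without S9CC47_R6. At 3h against 0h none of the 108 was called lower beside 0.789% of all genes, 2 had an unadjusted p-value under 0.05 in the same model, and edgeR's quasi-likelihood test called none. At 24h against 3h, 20 were called lower beside 0.598% of all genes, and 40 with the culture as a replicate block. Without one culture the 24h against 3h count was 1 (without S9CC13_R6), 3 (without S9CC47_R5) and 0 (without S9CC47_R6). In T>C CPM the highest 24h library lay below the lowest 0h library for 88 of the 108, beside 11.4% of the 10731 genes. The 3h against 0h calls, the 24h against 3h calls and this count also use the T>C values that chose the members, and nothing is read from them either. The 3h limit of the rule makes calls of lower T>C reads at 3h unlikely from the start.

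The largest group by textbook role was that of DNA-binding factors and their partners, with 16 of the 108 genes. In total reads 14 of the 16 were called lower at 24h, beside 70 of all 108 members and 7.85% of the genes tested. Total reads contain the T>C reads that chose the members, and nothing is read from these calls. The median 24h log2 ratio of T>C CPM in the group was -0.70 and the median 3h ratio was -0.10. The roles were assigned after the members were known. FOXC1, a forkhead factor of cranial mesenchyme and the eye (chr6:1609915-1613897, plus strand, hg38), had 0h T>C CPM of 388, 267 and 339, 3h values of 391, 270 and 322, and 24h values of 235, 170 and 212. All 24h values lay below all 0h and 3h values, and the cultures kept the same order at every time. The mean log2 ratio of FOXC1 was -0.69 ± 0.038 (SD, n = 3) at 24h and -0.016 ± 0.049 at 3h.

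SOX6, the SoxD factor that acts with SOX5 and SOX9 on cartilage genes (chr11:15966449-16739591, minus strand), had T>C CPM of 165, 151 and 155 at 0h, of 178, 155 and 159 at 3h, and of 101, 81.4 and 98.6 at 24h. The 24h libraries did not overlap those of either earlier time, and each culture was slightly higher at 3h than at 0h. Its 24h mean log2 ratio was -0.75 ± 0.13 (SD, n = 3). TBX2, a T-box repressor, differed widely between cultures, with T>C CPM of 157, 55.4 and 127 at 0h, of 135, 66.2 and 141 at 3h, and of 116, 38.5 and 89.1 at 24h. Here the groups overlapped across cultures, because S9CC47_R5 at 0h lay below S9CC13_R6 and S9CC47_R6 at 24h, while within each culture the 24h value was the lowest. The mean log2 ratio of TBX2 within cultures was -0.48 ± 0.048 (SD, n = 3).

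FOXO3, the forkhead factor held in check by insulin signalling through AKT, had T>C CPM of 224, 202 and 202 at 0h, of 210, 183 and 166 at 3h, and of 160, 117 and 147 at 24h. The highest 24h library lay below the lowest 3h library by a small margin only. Among other factors of the group, chosen for naming after their values were seen, the TALE homeodomain factor PKNOX2 stood out with T>C CPM of 98.3, 78.6 and 96.5 at 0h and of 40.2, 44.6 and 32.7 at 24h. Its mean log2 ratio was -1.21 ± 0.37 (SD, n = 3) in T>C CPM and -1.11 ± 0.13 in total CPM. ZNF219, a zinc-finger protein known as a partner of SOX9, had T>C CPM of 57.9, 49.2 and 50.8 at 0h, of 62.9, 44.6 and 45.2 at 3h and of 30.3, 29.2 and 24.3 at 24h, with no overlap between 24h and the earlier times. EYA4, a coactivator of homeodomain factors, had a mean 24h log2 ratio of -1.06 ± 0.43 (SD, n = 3). PRMT2, a protein arginine methyltransferase and nuclear receptor coactivator, was among the most abundant members, with T>C CPM between 338 and 411 at 0h, between 359 and 475 at 3h and between 205 and 258 at 24h. GREB1L, needed in kidney and inner ear development, fell by 1.32 in mean log2 ratio with a wide SD of 0.72, from 5.73 to 8.84 T>C CPM at 0h to 1.27 to 3.84 at 24h. ZMIZ2, a PIAS-like coactivator, had a 24h mean log2 ratio of -0.58 ± 0.23.

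**Figure D2:**
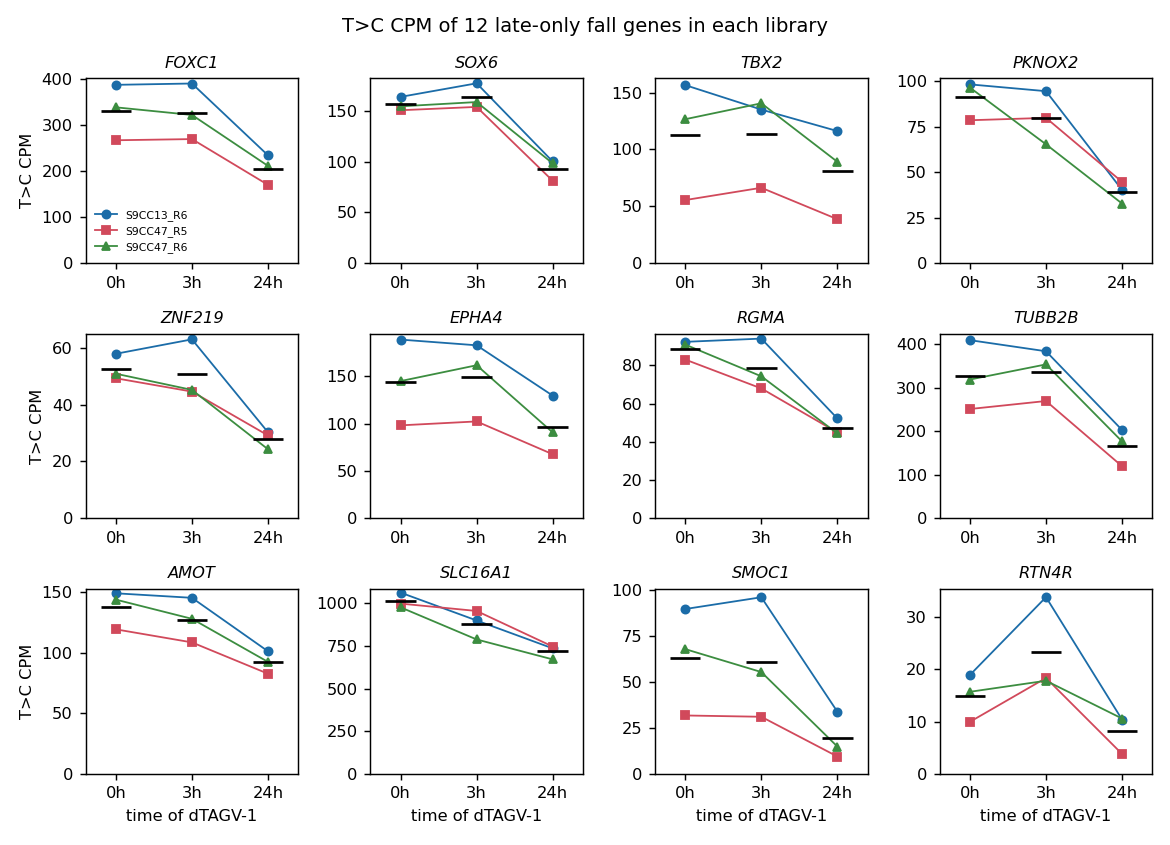
T>C CPM (vertical axes, starting at 0) of 12 late-only fall genes in each library at 0h, 3h and 24h of dTAGV-1, with 1 line and symbol per culture and a black bar at the mean of the 3 cultures. In all 12 panels each culture is lower at 24h than at 0h and at 3h, and RTN4R and SOX6 are highest at 3h in each culture.

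RefSeq promoters (GRCh38.p14) were searched for short sequences bound by known factor families in the 250 bases before the first listed start of each gene, on both strands, and 84 of the 108 genes had an entry. The SOX core AACAAT was found in 5 of the 84 (5.95%), in 12 of 130 matched genes that were already lower at 3h (9.23%) and in 363 of 8855 matched genes of the CPM minimum (4.10%). ACAAAG, a variant read by SOX and TCF/LEF factors, was in 8.33% of the 84 and in 8.59% of the 8855. CCAAT, bound by NF-Y, was in 33.3% and 36.1%, and TATAAA in 4.76% and 4.86%. The genes with AACAAT were AMOT, MYLK, NDRG2, SLC22A23 and ZNF219. For at least NDRG2 (chr14:21026311-21026560) and SLC22A23 (chr6:3324151-3324400) the window lay inside the annotated gene, because the first listed start was an internal one. As examples, the windows are shown of ZNF219 (chr14:21104723-21104972, minus strand), which holds the core at 2 places, and of AMOT (chrX:112840832-112841081, minus strand), the most abundant of the 5 in T>C CPM. Each runs 5′ to 3′ on the gene's strand, and capitals mark ATTGTT, which reads AACAAT on the opposite strand.
ZNF219: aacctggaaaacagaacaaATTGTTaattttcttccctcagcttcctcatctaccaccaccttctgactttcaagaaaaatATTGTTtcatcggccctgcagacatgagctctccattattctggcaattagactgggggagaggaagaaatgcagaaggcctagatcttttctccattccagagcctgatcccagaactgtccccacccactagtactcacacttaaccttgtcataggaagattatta
AMOT: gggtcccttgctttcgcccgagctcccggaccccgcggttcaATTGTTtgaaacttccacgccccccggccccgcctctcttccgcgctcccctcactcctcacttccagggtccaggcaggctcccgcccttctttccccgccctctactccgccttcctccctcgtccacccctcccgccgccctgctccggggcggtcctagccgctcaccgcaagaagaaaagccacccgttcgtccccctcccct
A match gives the letters in the window and does not show a bound site.

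Receptors and adhesion molecules of axon guidance and the growth cone made up 7 members, EPHA4, RGMA, NCAM1, RTN4R, ISLR2, CNTN4 and SEMA4D, with a median 24h log2 ratio of -0.97 in T>C CPM and of -0.63 in total CPM. Of the 7, 6 were called lower in total reads, beside 70 of all 108 members and 7.85% of the genes tested. These calls share reads with the selection, and nothing is read from them. EPHA4, a receptor for membrane-bound ephrins (chr2:221418027-221574202, minus strand), had T>C CPM of 189, 98.2 and 145 at 0h, of 183, 102 and 162 at 3h and of 130, 67.7 and 90.8 at 24h. The 0h and 24h groups overlapped because S9CC47_R5 was low at every time. RGMA, a membrane-anchored ligand of neogenin and co-receptor of BMPs, had T>C CPM of 92.2, 83.0 and 90.8 at 0h, of 93.9, 67.9 and 74.2 at 3h and of 52.2, 44.9 and 44.4 at 24h, with every 24h library below every earlier one. NCAM1, the neural cell adhesion molecule, went from 46.0, 31.1 and 49.4 T>C CPM at 0h to 26.8, 18.8 and 17.9 at 24h without overlap. CNTN4, a contactin on the surface of axons and the longest gene among the 108 (959147 bp), had T>C CPM of 17.9, 11.1 and 15.2 at 0h and of 7.39, 3.30 and 6.03 at 24h.

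RTN4R and ISLR2 were higher at 3h than at 0h in all 3 cultures before they were lower at 24h. RTN4R, the receptor for myelin inhibitors of axon growth, had T>C CPM of 19.0, 9.97 and 15.7 at 0h, of 33.9, 18.4 and 17.8 at 3h and of 10.4, 3.80 and 10.6 at 24h. Its 0h and 24h ranges overlapped across cultures but not within them, and its mean log2 ratio was 0.62 ± 0.38 (SD, n = 3) at 3h and -0.89 ± 0.37 at 24h. ISLR2, an immunoglobulin and leucine-rich repeat protein of developing axons, had T>C CPM of 37.1, 13.2 and 16.8 at 0h, of 52.1, 21.5 and 22.2 at 3h and of 15.5, 6.84 and 4.20 at 24h. Neither gene was called at 3h or, against 0h, at 24h in T>C reads. Both were called lower at 24h against 3h, a contrast of the values that chose them, from which nothing is read. SEMA4D, a semaphorin that signals through plexin-B1, had a 24h mean log2 ratio of -0.98 ± 0.58.

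Secreted, matrix and surface proteins numbered 9, with a median 24h log2 ratio of -0.81 in T>C CPM, and held 2 of the 3 deepest falls. SMOC1, a calcium-binding matrix protein that modulates BMP signalling (chr14:69854131-70032366, plus strand), had T>C CPM of 89.4, 31.7 and 67.7 at 0h, of 95.8, 31.0 and 55.2 at 3h and of 33.7, 9.38 and 14.8 at 24h. The levels differed between cultures by more than 2-fold at each time, and the highest 24h value, in S9CC13_R6, lay above the lowest 0h value, in S9CC47_R5. Within cultures its mean log2 ratio was -1.75 ± 0.38 (SD, n = 3) at 24h and -0.075 ± 0.20 at 3h, and total CPM moved by -1.64 ± 0.14. PROM1, a membrane protein of cell protrusions, had T>C CPM of 7.33, 3.52 and 4.62 at 0h, of 7.99, 5.16 and 6.62 at 3h and of 1.62, 0.761 and 1.46 at 24h, with as few as 3 T>C reads in a library. COL25A1, a transmembrane collagen, had T>C CPM of 14.2, 14.4 and 14.2 at 0h and of 4.39, 6.59 and 5.66 at 24h, and COL4A2, a basement membrane collagen, of 36.4, 28.4 and 31.8 at 0h and of 23.6, 17.0 and 20.1 at 24h. Neither collagen overlapped between 0h and 24h. CLTRN, a membrane protein that assists amino acid transport, went from between 4.62 and 6.32 T>C CPM at 0h to between 2.79 and 3.47 at 24h.

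Receptors and signalling proteins numbered 15 with a median 24h log2 ratio of -0.73. ITPR3, a calcium release channel of the endoplasmic reticulum (chr6:33620365-33696574, plus strand), had the lowest mean ratio of all 108, -2.30 ± 0.72 (SD, n = 3), at a low level of 6.06, 6.45 and 5.18 T>C CPM at 0h, 5.11, 6.60 and 3.74 at 3h and 1.62, 1.01 and 0.183 at 24h. Total reads, with deeper counts, gave ITPR3 6.37, 7.96 and 5.73 CPM at 0h and 1.28, 1.97 and 0.778 at 24h, with a mean log2 ratio of -2.00 ± 0.26. NDRG2, a stress-responsive growth suppressor, had 12.1, 4.10 and 4.25 T>C CPM at 0h and 2.31, 2.03 and 2.19 at 24h, so its fall was steeper in S9CC13_R6 than in the other cultures. FGF13, an intracellular FGF homologue that binds sodium channels, and FZD5, a WNT receptor, had 24h mean log2 ratios of -1.06 ± 0.60 and -0.73 ± 0.28, and the 3h ratios of FZD5 scattered widely (SD 1.24). DUSP22, a phosphatase of the JNK pathway, was steady at -0.46 ± 0.014. TYRO3, a receptor kinase of the TAM family named after its values were seen, went from 21.7, 23.5 and 31.2 T>C CPM at 0h to 10.4, 8.62 and 16.1 at 24h without overlap.

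AMOT and WWC1 are scaffolds of the Hippo pathway, which keeps the coactivators YAP and TAZ out of the nucleus, and TEAD4 is one of the DNA-binding partners of YAP and TAZ. AMOT had T>C CPM of 149, 119 and 144 at 0h, of 145, 109 and 128 at 3h and of 101, 82.6 and 92.4 at 24h, with no overlap between 24h and the earlier times. WWC1 had 9.60, 4.40 and 9.43 T>C CPM at 0h, 9.58, 7.02 and 6.04 at 3h and 2.08, 2.54 and 2.56 at 24h. TEAD4, named after its values were seen, had a 24h mean log2 ratio of -0.67 ± 0.30 (SD, n = 3).

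Of the 14 members that code for cytoskeletal proteins, 10 were called lower in total reads, beside 70 of all 108 members and 7.85% of the genes tested. Nothing is read from these calls, which share reads with the selection. The 14 genes had a median 24h log2 ratio of -0.71 in T>C CPM. TUBB2B, a beta-tubulin of migrating and differentiating neural cells, was the most abundant of them, with T>C CPM of 410, 251 and 319 at 0h, of 384, 270 and 354 at 3h and of 203, 120 and 177 at 24h. Every 24h library was below every earlier one, and the mean log2 ratio was -0.97 ± 0.11 (SD, n = 3). TUBB2A, its near-identical neighbour, had 19.0, 15.5 and 14.8 T>C CPM at 0h and 13.4, 10.7 and 10.8 at 24h, and reads of the pair can be split between them, so the value of each gene is uncertain. TAGLN, an actin-binding marker of smooth muscle, had 7.58, 7.03 and 14.4 T>C CPM at 0h and 4.16, 2.54 and 10.4 at 24h, and its total CPM moved by a mean log2 ratio of -0.18 ± 0.80. TAGLN is 1 of the 10 called lower in total reads, although its total CPM was 20.1, 17.3 and 29.6 at 0h and 13.2, 10.5 and 49.8 at 24h, higher in S9CC47_R6. The 8 smooth muscle markers, TAGLN included, summed to between 46.5 and 68.4 total CPM at 0h and to between 39.9 and 82.2 at 24h, with overlapping ranges. MYLK, the myosin light chain kinase, and HAUS7, a subunit of the augmin complex of the spindle, both named after their values were seen, had 24h mean log2 ratios of -0.89 ± 0.23 and -0.70 ± 0.38.

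Metabolic enzymes and transporters numbered 12 with a median 24h log2 ratio of -0.69. SLC16A1, the lactate and pyruvate transporter MCT1, was the most abundant member, with T>C CPM of 1064, 999 and 977 at 0h, of 900, 956 and 789 at 3h and of 736, 747 and 672 at 24h. Its 24h values lay below all others and its 3h values lay between, at a mean log2 ratio of -0.20 ± 0.13 (SD, n = 3) at 3h and -0.50 ± 0.067 at 24h. SRM, the enzyme that makes spermidine, had T>C CPM of 264, 281 and 274 at 0h, of 274, 288 and 202 at 3h and of 180, 189 and 176 at 24h, and S9CC47_R6 was the culture that was low at 3h already. PPOX, an enzyme of haem synthesis, had 4.80, 7.03 and 9.80 T>C CPM at 0h and 3.47, 5.07 and 5.66 at 24h, with overlap across cultures.

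The remaining groups were proteins of membrane traffic, lipids and organelles (10 genes, median 24h log2 ratio -0.74), of RNA, DNA, translation and chromosomes (8 genes, -0.53), ubiquitin ligases (3 genes, -0.55), glycosyltransferases (2 genes, -0.74) and 10 genes that were not grouped (-0.86). OSBPL10, an oxysterol-binding protein relative, had T>C CPM of 48.5, 25.5 and 48.3 at 0h, of 64.5, 35.9 and 47.2 at 3h and of 12.9, 17.0 and 18.1 at 24h without overlap. WWP2, a ubiquitin ligase whose gene hosts a cartilage microRNA, had 72.5, 62.1 and 66.0 T>C CPM at 0h and 46.7, 44.1 and 45.5 at 24h without overlap. RUFY1, an endosome effector, had 95.0, 91.7 and 94.8 T>C CPM at 0h and 64.0, 67.7 and 66.1 at 24h, with a mean log2 ratio of -0.51 ± 0.066 (SD, n = 3). SMU1, a splicing factor, had a 24h mean log2 ratio of -0.49 ± 0.051. The ungrouped YPEL2 had 24h T>C CPM of 2.08, 1.27 and 1.46 after 6.06, 2.64 and 7.03 at 0h.

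**Figure D3:**
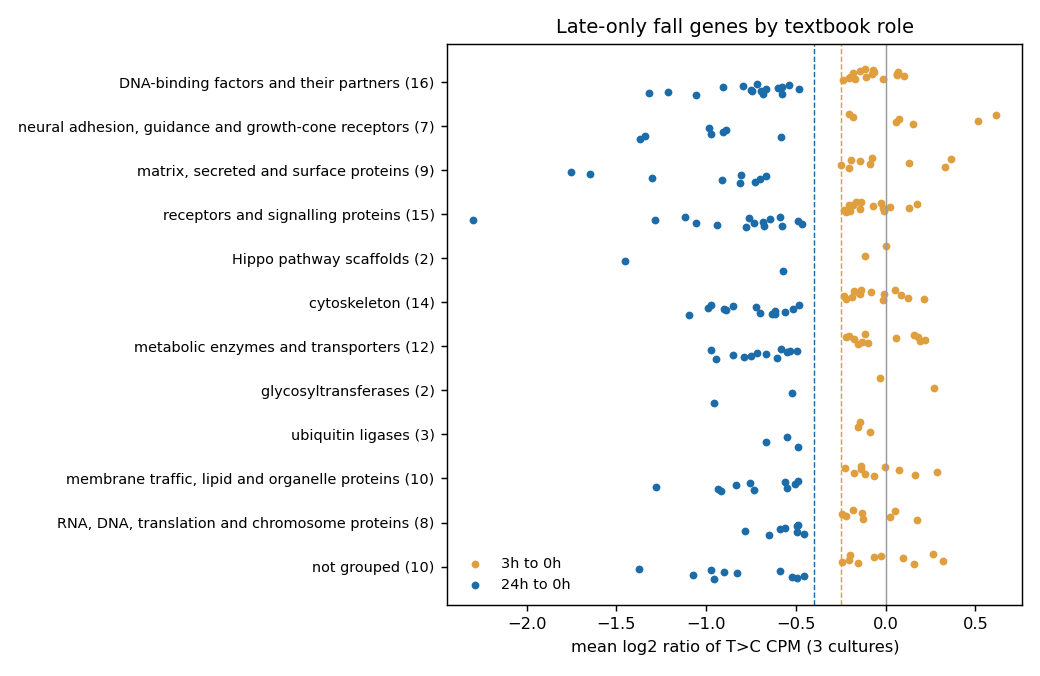
Mean log2 ratio of T>C CPM at 3h (orange) and at 24h (blue) over 3 cultures for each of the 108 genes, by textbook role with the number of genes in parentheses. Dashed lines mark the limits of -0.25 for the 3h mean and -0.4 for each culture at 24h, and group medians at 24h lie between -1.01 and -0.53.

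Total reads of the 108 genes moved in the same direction but less far. The median 24h log2 ratio was -0.44 in total CPM and -0.39 in CPM of unconverted reads (total minus T>C reads), beside 0.04 and 0.03 over the 10731 genes. Total reads contain the T>C reads, so that these are not independent of the selection. The members were chosen for low T>C reads at 24h, and this choice favours a smaller move in total and unconverted reads. Nothing is read from the direction, from the gap or from the counts below. The mean 24h log2 ratio in total CPM lay above that in T>C CPM in 101 of the 108 genes, and in 62.3% of the 10731 genes. For a gene that rose, this means a larger rise in total CPM, so the 62.3% is not a share of smaller moves. Total CPM was lower at 24h than at 0h in all 3 cultures for 90 of the 108, beside 19.4% of the 10731 genes. Its highest 24h library lay below its lowest 0h library for 76, beside 12.0% of the 10731 genes. DESeq2 called 70 of the 108 lower in total reads at 24h beside 7.85% of the genes tested, and 55 of the 107 tested in unconverted reads beside 6.27%. Without one culture these counts were 4, 34 and 2 for total reads and 6, 24 and 17 for unconverted reads (without S9CC13_R6, S9CC47_R5 and S9CC47_R6 in turn). Both T>C and total reads were called lower for 43 genes, total reads alone for 27, T>C reads alone for 2 (RUFY1 and OGFOD2) and neither for 36.

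Genes differed in how far total reads followed. ITPR3, SMOC1, PROM1, YPEL2 and OSBPL10 moved most in total CPM, with mean log2 ratios of -2.00, -1.64, -1.26, -1.25 and -1.23. SMU1, CLTRN, PPOX and RUFY1 were among those that moved least, with -0.017, -0.036, -0.093 and -0.11. SMU1 had 42.5, 33.4 and 41.2 T>C CPM at 0h and 31.2, 22.8 and 29.0 at 24h, while its total CPM was 34.6, 34.3 and 36.3 at 0h and 37.3, 31.8 and 35.0 at 24h. Thus the new RNA of SMU1 did not overlap between the times and its total RNA did. The opposite pattern was that of SOX6, whose total CPM of 69.9, 64.4 and 67.6 at 0h and of 46.7, 34.1 and 46.1 at 24h followed its T>C CPM closely. PDK2, a kinase that restrains pyruvate dehydrogenase, had the highest ratio in total CPM, 0.15 ± 0.15 (SD, n = 3), and SAMD14 overlaps its last exon on the opposite strand.

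**Figure D4:**
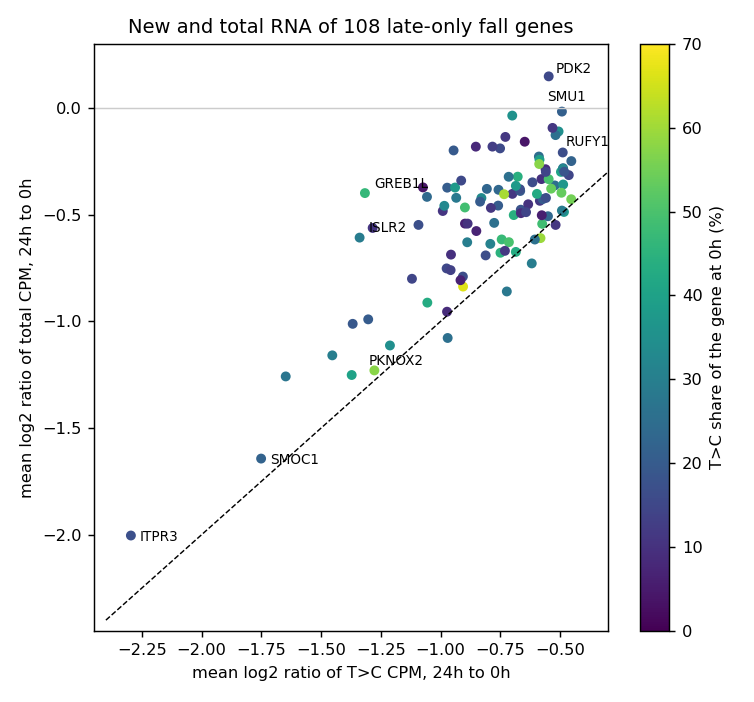
Mean log2 ratio of 24h to 0h over 3 cultures in T>C CPM (horizontal axis) and in total CPM (vertical axis) for the 108 genes, coloured by T>C share at 0h in percent. The dashed line marks equal ratios, and 101 of the 108 points lie above it.

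The T>C share of a gene, the percent of its total reads that were T>C reads, rises with how much of its RNA was made during the labelling and therefore differs between stable and short-lived transcripts. It ran from 3.84% (IFI27L2) to 66.6% (RGMA) at 0h among the 108 genes, with a median of 22.4% beside 28.2% over the 10731 genes and 28.0% over the 169. The smallest shares after IFI27L2 were those of CPSF1 (3.94%), ZMIZ2 (5.99%), PHPT1 (6.32%) and ATP6V0E2 (6.37%), and the largest after RGMA were those of FZD5 (60.7%), EPHA4 (59.5%), OSBPL10 (57.6%) and RAD52 (57.5%). DNA-binding factors and their partners had a median share of 42.9% and cytoskeletal genes one of 14.8%. Over the 108 genes the median share was 20.0% at 3h and 18.9% at 24h, whereas over the 10731 genes it was 26.0% and 29.5%. Within genes the median difference of 24h minus 0h was -1.75 percentage points for the members and 0.99 for the 10731 genes. The share was lower at 24h in all 3 cultures for 48 of the 108, beside 7.74% of the 10731 genes. It was higher in all 3 for 6 of the 108, beside 24.6% of the 10731 genes. Because the members were chosen for low T>C reads at 24h, a lower share at 24h is built into the selection, and nothing is read from its distance to all genes.

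The share shrinks where T>C reads fall further than unconverted reads, and its extremes among the members show both cases. GREB1L had a share of 51.5%, 50.0% and 38.8% at 0h and of 25.0%, 20.8% and 28.8% at 24h, a difference of -21.9 percentage points. CLTRN and ISLR2 followed with differences of -13.1 and -10.6 points. By contrast EPHA4 went from 58.4%, 61.9% and 58.2% to 63.0%, 66.1% and 66.8%, so its share was higher at 24h in each culture while its T>C and total CPM were both lower. Across the members, the size of the share at 0h bore little relation to the gap between total and T>C ratios (Pearson r = -0.23, Spearman rho = -0.22 over 108 genes that share the same libraries, a description only). When the members were ordered by share at 0h in 3 sets of 36, the median 24h ratio in total CPM was -0.46, -0.43 and -0.44 from the lowest to the highest set.

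**Figure D5:**
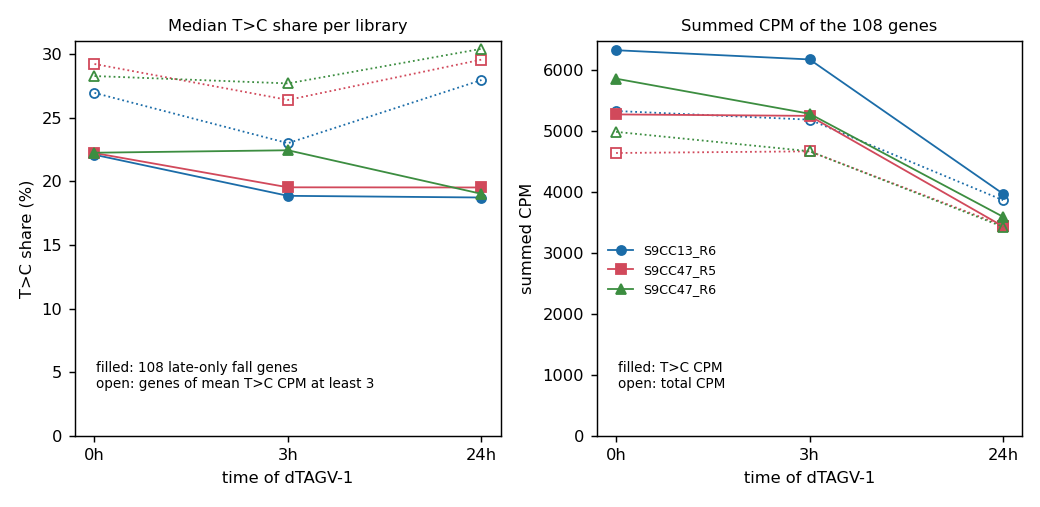
Left, median T>C share per library in percent for the 108 genes (filled) and for the 10731 genes of the CPM minimum (open). Right, summed T>C CPM (filled) and summed total CPM (open) of the 108 genes in each library. Lines join the libraries of a culture, and the members' summed T>C CPM lies between 3438 and 3973 at 24h, below all earlier libraries.

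Cultures differed in the level of the members. At 0h the highest culture was S9CC13_R6 for 64 of the 108 genes, S9CC47_R6 for 27 and S9CC47_R5 for 17, and the median fold between the highest and the lowest culture was 1.30, beside 1.28 over the 10731 genes. A difference of more than 2-fold was seen in 15 members (13.9%) and in 8.07% of the 10731 genes. The median 24h log2 ratios of the members were -0.68 in S9CC13_R6, -0.68 in S9CC47_R5 and -0.66 in S9CC47_R6. The deepest of a gene's 3 ratios fell in S9CC13_R6 for 30 genes and in each of the other cultures for 39. In PHPT1 a single culture carried much of the mean, with T>C CPM of 114, 83.5 and 60.8 at 0h and of 85.7, 59.8 and 17.0 at 24h, and ratios of -0.41, -0.48 and -1.81. In 13 members at least 1 library held fewer than 10 T>C reads, ITPR3 with a single read among them.

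Gene lists of pathways were counted in the same fit, with the lists chosen while earlier results of these data were known. Over all 12037 genes, 2.59% were called lower and 2.38% higher in T>C reads at 24h against 0h. The cartilage list had 8 of 23 tested genes called lower in T>C reads at 24h and 1 higher (CYTL1), with a median log2 fold change of -0.55 beside 0.00 over all 12037 genes. The members SOX6 and WWP2 were among the 8. The other 6 were COL2A1 (log2 fold change -1.10 ± 0.13 SE, DESeq2 adjusted p = 8.73e-14), SOX5 (-1.26 ± 0.19, adjusted p = 1.52e-08), PRELP (-3.14 ± 0.41, adjusted p = 5.35e-12), COL9A1 (-1.07 ± 0.33, adjusted p = 0.0316), COL11A1 (-0.43 ± 0.13, adjusted p = 0.027) and MIA (-3.02 ± 1.07, adjusted p = 0.0977). Over all genes of the CPM minimum, 108 of 10731 were members. Among matrix genes of that minimum 1 of 30 was a member, COL4A2 (3 of 32 tested lower, 9 higher). Among cranial neural crest factors it was 1 of 34, FOXC1 (1 of 34 tested lower, 12 higher). Among WNT genes it was 1 of 33, FZD5 (2 of 35 tested lower, 2 higher). Among FGF and ERK genes it was 1 of 25, FGF13 (2 of 31 tested lower, 6 higher). Guidance and adhesion genes held 2 of 49, EPHA4 and NCAM1 (6 of 61 tested lower, 5 higher). Nothing is read from these small counts of members. FOXC1, itself chosen for its fall at 24h, was the single crest factor called lower, 2.94% of those tested and near the 2.59% of all genes. Nothing is read from that count. No member belonged to the lists of BMP and TGF-beta genes, Notch and Hedgehog genes, DNA replication, mitosis, sterol synthesis, endoplasmic reticulum stress, p53 targets, immediate-early genes or hypoxia and glycolysis. Each of these lists held between 16 and 48 genes of the CPM minimum. With 108 members among 10731 genes, lists of this size can easily hold none, and nothing is read from the absences.

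The members' genes had a median length of 50268.5 bp (GENCODE release 44, hg38), beside 35904 bp over 10671 annotated genes of the CPM minimum and 52011 bp over 167 of the 169 genes that were already lower at 3h. Genes over 250 kb made up 13.9% of the members, 5.52% of the 10671 and 14.4% of the 167. The longest members included CNTN4 (959147 bp), SOX6 (773143 bp) and FGF13 (608051 bp), and the shortest were PHPT1 (2304 bp) and CLEC11A (2345 bp). On the same chromosome, 11 pairs of neighbouring members lay within 1 Mb of each other, of which NDRG2 and ZNF219 were the closest at 19205 bp apart.

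Chromosome 6 held 11 members, 1.98% of its 556 genes of the CPM minimum, beside 108 of 10731 over all chromosomes. The shares were 2.13% on chromosome 21, 2.04% on chromosome 22 and 1.93% on chromosome 14. On chromosome 6, DUSP22, FOXC1, TUBB2A, TUBB2B and SLC22A23 lay in an interval at its short-arm end (chr6:291630-3457050), which was singled out after the positions were seen. The interval held 16 genes of the CPM minimum, 7 of which were lower at 24h in all 3 cultures, beside 19.0% of the 10731 genes. Of the 7, 5 are the members, chosen for that fall, and the first and last of them bound the interval. SLC22A23, an orphan member of the organic ion transporter family, had T>C CPM of 2.78, 4.69 and 7.58 at 0h and of 1.16, 2.28 and 3.47 at 24h, a ratio of -0.97 ± 0.064 (SD, n = 3). Not all genes of the interval went the same way, since SERPINB9, an inhibitor of granzyme B and no member, was called higher with a mean log2 ratio of 1.64 ± 0.49.

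Reads of neighbouring genes could enter some members' counts. The last exon of 10 members overlapped an exon of a gene on the opposite strand, among them TAGLN (with PCSK7), PDK2 (with SAMD14) and ST7L (with WNT2B), and that of CASTOR1 overlapped a gene on the same strand. Whether such reads were kept apart by strand is not stated in the sources used here.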

How the data were processed

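Both deposited tables hold raw read counts per gene symbol for 9 libraries, 1 of all reads and 1 of T>C reads. The authors made these counts with slamdunk from read 1 of each pair after trimming adapters and poly(A), on hg38 per the labels, and merged them per gene. No normalization was applied to them, and no molecular identifiers were stated, so PCR copies may be counted. Whether the 3 cultures are fully separate experiments is known only from their clone and batch names, and p-values measure the spread between these samples.

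The members and the gene lists were chosen with earlier results of these data known. CPM are counts scaled to the column sum of the same table. Unconverted reads are total minus T>C reads. Ratios used a pseudocount of 0.5 CPM, compared libraries of the same culture, and are given as the mean ± SD over 3 cultures. DESeq2 1.42.0 (R 4.3.3) was fitted to the counts of all 9 libraries with time, differentiation batch and 1 surrogate variable (sva 3.50.0, time protected), over protein-coding genes of at least 1 CPM in 3 libraries, without independent filtering. The fit was tested on simulated data. Alternatives were edgeR 4.0.16, TMM factors, other covariates, other filters on low counts, a threshold of 0.05, fewer samples and each culture left out. The cultures pair the libraries, since clone and batch stand in the sample titles, and same-culture libraries deviated together with a mean correlation of 0.12 in T>C reads (0.027 to 0.25, 9 pairs). In total reads the mean correlation was 0.28 (-0.049 to 0.60, 9 pairs). The main fit held batch but not culture, which entered only in the replicate block.

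Members were named by fixed ranks: the 10 with the highest mean T>C CPM, the 10 with the lowest 24h ratio, those in a gene list, the 5 with the largest and the 5 with the smallest share, the 5 whose total reads moved most and the 5 whose total reads moved least, and the 3 genes on either side of each limit. All other members given by name were chosen after their values were seen. Some members that these ranks name are not reported here. Of the 18970 symbols, 18451 matched GENCODE release 44 directly and 118 matched nothing. Protein sequences were not used here.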

Additional observations from a re-analysis of the deposited data

Results flagged for a closer look

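In 5 members, T>C CPM was higher at 3h than at 0h in every culture and lower at 24h in every culture, so that the 2 times moved in opposite directions. The fall at 24h was set by the rule. Higher values at 3h in every culture were rarer among the members (4.63%) than among the 10731 genes (12.9%). The mean 3h log2 ratio was 0.62 in RTN4R, 0.52 in ISLR2, 0.36 in PROM1, 0.32 in GFOD1 and 0.061 in SOX6. All 5 were called lower at 24h against 3h, but both times chose the members, so the difference between the times was not tested on values independent of the selection. None of the 5 was called higher at 3h.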

How the results depend on the processing

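The number of members was 102 with a pseudocount of 1 CPM, 110 with 0.1 CPM, 116 and 74 with a CPM minimum of 1 and 10, 116 with DESeq2 size factors and 114 with TMM factors, and it was 40 with scaling to total reads and 174 to 365 with a culture left out, of which 88 to 93 were among the 108. For T>C reads at 24h against 0h, 29 in place of 45 members were called with the replicate block and a surrogate variable, and 2 to 11 with a culture left out. At 24h against 3h, 20 became 40 under the replicate block, 9 when it was joined to a surrogate variable, 35 under batch alone, 8 with the 6 libraries compared and 0 to 3 with a culture left out. At 3h against 0h the count was 1 with size factors from total reads and 0 in every other setting run. Total reads gave 31 in place of 70 calls, and unconverted reads 21 in place of 55, with the 6 libraries compared, and 2 to 34 and 6 to 24 with a culture left out. Among these 5 counts of members called, neither the replicate block nor any other setting moved one by more than 1.5 times beyond the cases given. The cause of these shifts was not tested, though settings with a culture or a time left out have fewer samples.

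The median 24h log2 ratio in T>C CPM was -0.74 with DESeq2 size factors, -0.69 with a pseudocount of 1 CPM, -0.64 with scaling to total reads and -0.71 to -0.68 with a culture left out, moves beyond the SD of 0.012 between cultures. In total CPM it was -0.48 with size factors, -0.43 with a pseudocount of 1 CPM and -0.49 to -0.44 with a culture left out, and in unconverted CPM -0.43 to -0.36 with a culture left out. The share difference kept its sign throughout, from -1.84 to -1.18 percentage points. Among 390 refits of the 39 named members, 311 moved by less than the SD between cultures, 78 moved by more and 1 changed sign, PHPT1, with 0.026 without S9CC47_R5. Counts under 10 T>C reads limit 13 members.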
